A study of Caenorhabditis elegans with 2 samples.

Results

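The guanylyl cyclase genes of Caenorhabditis elegans were taken as all protein-coding genes whose symbol starts with gcy-, plus daf-11 and odr-1. There were 33 of them among 19985 protein-coding genes of the WBcel235 annotation. Of these, 5 are known from ASER, the right cell of the ASE pair of taste neurons (gcy-1, gcy-3, gcy-4, gcy-5 and gcy-22), 4 from ASEL, the left cell (gcy-6, gcy-7, gcy-14 and gcy-20), and 24 were kept apart as genes of other cells. In all, 26 code for receptor-type cyclases and 7 (gcy-31 to gcy-37) for soluble ones. The study mapped chromatin by ChIP-seq in worms of strain OP677, genotype unc-119(tm4063) III; wgIs677, in which the zinc finger transcription factor CHE-1 carries GFP and FLAG at its C terminus. Chromatin was sheared by sonication and recovered with an anti-GFP antibody from whole late embryos of mixed sex, 6 hours after synchronization by bleaching of eggs. Both libraries carry these same alleles and are labelled biological replicates 1 and 2 of the same group. The ASE neurons are a single pair of cells in these whole embryos, and the share of the recovered chromatin that came from them was not measured. There is no second group. Neither an untagged strain nor a control library was analysed here, though the authors' scores are relative to a control. Values are therefore described without a test, and recovery that does not depend on the tagged protein cannot be told apart.

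Guanylyl cyclases make cyclic GMP (cGMP), the second messenger that opens cyclic nucleotide-gated channels in many sensory neurons of the worm. Receptor-type cyclases span the membrane of sensory cilia and serve as receptors or transducers for salts, odours, temperature and carbon dioxide, while several soluble cyclases bind oxygen through a heme group. CHE-1 is the terminal selector of the ASE neurons: it is known to switch on genes of both cells through a DNA site with the core GAAACC or GAAGCC, and receptor cyclases expressed in 1 cell of the pair are among its best known targets.

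The sequences below show that core where it lies before the ASE genes, and the strongest region found at any of the 33 genes. They were read from the RefSeq sequence of build WBcel235. The first 3 are the 180 bases that end just before the start of gcy-22 (chrV:20825063-20825242, minus strand), gcy-7 (chrV:8387176-8387355, plus strand) and gcy-14 (chrV:14868282-14868461, minus strand), 5′ to 3′ on the strand of the gene. Capitals mark the core, here in its reverse complement, and the gcy-14 stretch holds none on either strand.
gcy-22: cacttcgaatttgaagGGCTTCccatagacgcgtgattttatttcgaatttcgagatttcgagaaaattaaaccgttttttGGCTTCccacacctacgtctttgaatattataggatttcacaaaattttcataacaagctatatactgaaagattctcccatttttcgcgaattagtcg
gcy-7: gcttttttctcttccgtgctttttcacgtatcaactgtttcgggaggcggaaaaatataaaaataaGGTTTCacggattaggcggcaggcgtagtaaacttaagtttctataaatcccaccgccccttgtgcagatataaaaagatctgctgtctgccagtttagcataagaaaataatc
gcy-14: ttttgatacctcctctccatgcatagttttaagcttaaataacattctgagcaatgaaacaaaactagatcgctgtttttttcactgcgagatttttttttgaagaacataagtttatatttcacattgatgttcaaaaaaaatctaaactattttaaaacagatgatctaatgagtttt
For the remaining ASE genes the core nearest to the gene start is given with 12 bases on either side, on the strand that reads GAAACC or GAAGCC, again in capitals. These lie at chrV:10314205-10314234 (minus strand) for gcy-6, chrV:16253835-16253864 (plus) for gcy-20, chrII:9517050-9517079 (minus) for gcy-1, chrII:9507369-9507398 (plus) for gcy-3, chrII:10308876-10308905 (minus) for gcy-4 and chrII:10316344-10316373 (plus) for gcy-5. That of gcy-5 also lies in an exon of the neighbouring gene idpp-8, and the others overlap no annotated exon.
gcy-6: gacttgttcgtcGAAGCCcttcaacaagtt
gcy-20: ggaggcaataaaGAAACCtttcaatatttt
gcy-1: atcaagaaaaacGAAGCCactttttagtgt
gcy-3: aatttcaaaagtGAAACCttaaaaatttcc
gcy-4: taaagcttaaaaGAAGCCaatcatctactg
gcy-5: acctttttctttGAAACCatacgcatttgg
The last sequence is the plus strand of chrV:12002087-12002307, around the strongest summit found at a guanylyl cyclase gene, upstream of gcy-33. Capitals mark the isoleucine tRNA gene F57F5.t1, which the non-coding RNA gene F57F5.7 overlaps on the other strand.
gcy-33 region: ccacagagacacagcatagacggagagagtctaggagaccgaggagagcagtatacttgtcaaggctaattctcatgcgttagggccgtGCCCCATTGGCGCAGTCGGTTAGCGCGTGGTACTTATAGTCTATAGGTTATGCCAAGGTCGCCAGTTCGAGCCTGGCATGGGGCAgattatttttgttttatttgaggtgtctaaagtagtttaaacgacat

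The authors deposited regions of recovered chromatin in 4 lists. The set thresholded by the irreproducible discovery rate (IDR, a measure of how alike regions rank in the replicates) held 791 regions. The list of both replicates together, that of replicate 1 and that of replicate 2 held 30000 each, background regions included. Rank 1 is the region with the highest score in a list. The score is the authors' own value per region on a scale that is not stated, so it is used here only to rank regions within a list. The IDR set was identical with ranks 1 to 791 of the list of both replicates, so a single region in it need not rank alike in the 2 replicates. In that list scores ran down to 32.9 with a median of 47.7, and a gene without a region there has no summit above that lower end, which is not the same as no recovery. Ranks given for a gene are its best in each list, and these can belong to different regions of the window. A region was assigned to a gene when its summit lay between 2 kb upstream of the gene start and the gene end. No read counts are given, so the depth of the libraries is unknown.

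An IDR region lay in the window of 3 of the 33 guanylyl cyclase genes, gcy-33, gcy-35 and gcy-28. That is 9.09% (exact 95% interval 1.92 to 24.3%), beside 4.29% of all protein-coding genes, so the interval includes the share of all genes. None of the 3 is an ASE gene. The counts were 0 of 5 ASER genes (interval 0 to 52.2%), 0 of 4 ASEL genes (0 to 60.2%) and 3 of 24 genes of other cells (12.5%, 2.66 to 32.4%). Soluble cyclases had 2 of 7 and receptor-type cyclases 1 of 26. Guanylyl cyclase genes are long, with a median window of 7.82 kb (4.88 to 29.7 kb) against 4.03 kb over all protein-coding genes, and a longer window can hold more summits. With only the 2 kb upstream counted, 1 member, gcy-33, had an IDR region, beside 3.09% of all genes.

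**Figure D1:**
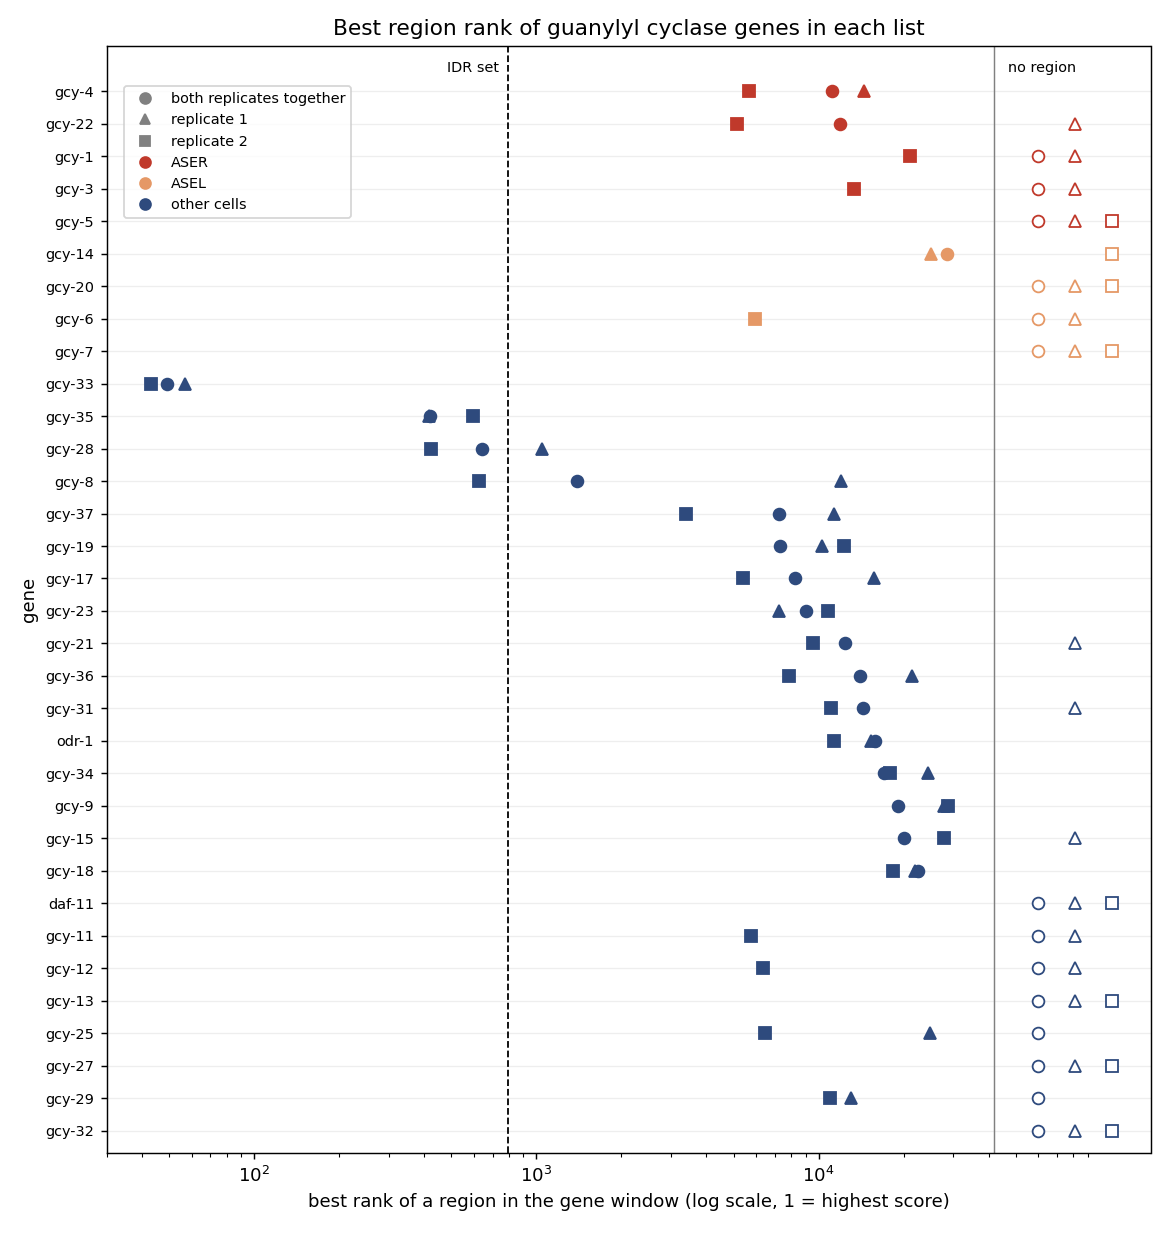
Best rank of a region in the window of each of the 33 genes (rows, grouped as ASER, ASEL and other cells) in the list of both replicates together (circles), replicate 1 (triangles) and replicate 2 (squares), on a log axis with the highest score at the left. The dashed line is rank 791 and open symbols at the right mark lists without a region. Only gcy-33 and gcy-35 lie left of the line in all 3 lists, and every ASE symbol lies right of rank 5000.

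Among the ASER genes, gcy-4 and gcy-22 had a region in the list of both replicates, at ranks 11172 and 11946. gcy-22 codes for a receptor cyclase needed for responses to several salts and amino acids. Its best region ranked 11946 in the list of both replicates (score 52.4) and 5147 in replicate 2 (35.5), and replicate 1 had none in the window. The summit lay 1171 bp upstream of gcy-22, on chromosome V at 20826233, where the start of grl-14 was nearer, at 674 bp. For gcy-4 the best ranks were 11172 in the list of both replicates (score 53.7), 14528 in replicate 1 (30.1) and 5671 in replicate 2 (34.5). gcy-4 is thus the ASER gene with a region in every long list. Its region of both replicates, chromosome II 10304555 to 10305038, lay in an intron 4029 bp past the gene start and had its summit in ZK970.t3, a proline tRNA gene. Replicate 1 had a region with the same summit at rank 24726 (23.4), but its best region lay elsewhere, in an exon 2004 bp past the start.

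The other ASER genes had no region in the list of both replicates. gcy-1 had a region only in replicate 2, at rank 21088 (score 21.1), and gcy-3 only in replicate 2, at rank 13367 (25.9). gcy-5, which codes for a cyclase whose reporter is a standard mark of the ASER cell, had none in any list. gcy-1 and gcy-3 lie next to gcy-2, a related gene annotated as a pseudogene and so not counted. gcy-2 had a region only in replicate 2, at rank 19282. In the gcy-1 window 13.8% of 50-base stretches occur again in the genome, and in the gcy-3 window 9.99%. How the authors placed such reads is not given in the sources used here, so values at this cluster are uncertain. The gcy-5 window held 0.167% of such stretches and the gcy-22 window 0%.

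Among the ASEL genes, gcy-14 alone had a region in the list of both replicates. gcy-14 codes for a receptor cyclase known for sensing alkaline pH and sodium. It ranked 28428 in the list of both replicates (score 34.1) and 25039 in replicate 1 (23.3), both close to the lower end, and replicate 2 had none. The summit lay 1269 bp upstream, on chromosome V at 14869550. gcy-6 had a region only in replicate 2, at rank 5949 (33.96), 560 bp upstream and 58 bp from the start of trx-2, a thioredoxin gene. gcy-7, the standard marker of ASEL, had none in any list, and neither had gcy-20. Almost all of the gcy-7 and gcy-20 windows is unique sequence, with 0% (gcy-7) and 0.014% (gcy-20) of 50-base stretches found elsewhere.

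**Figure D2:**
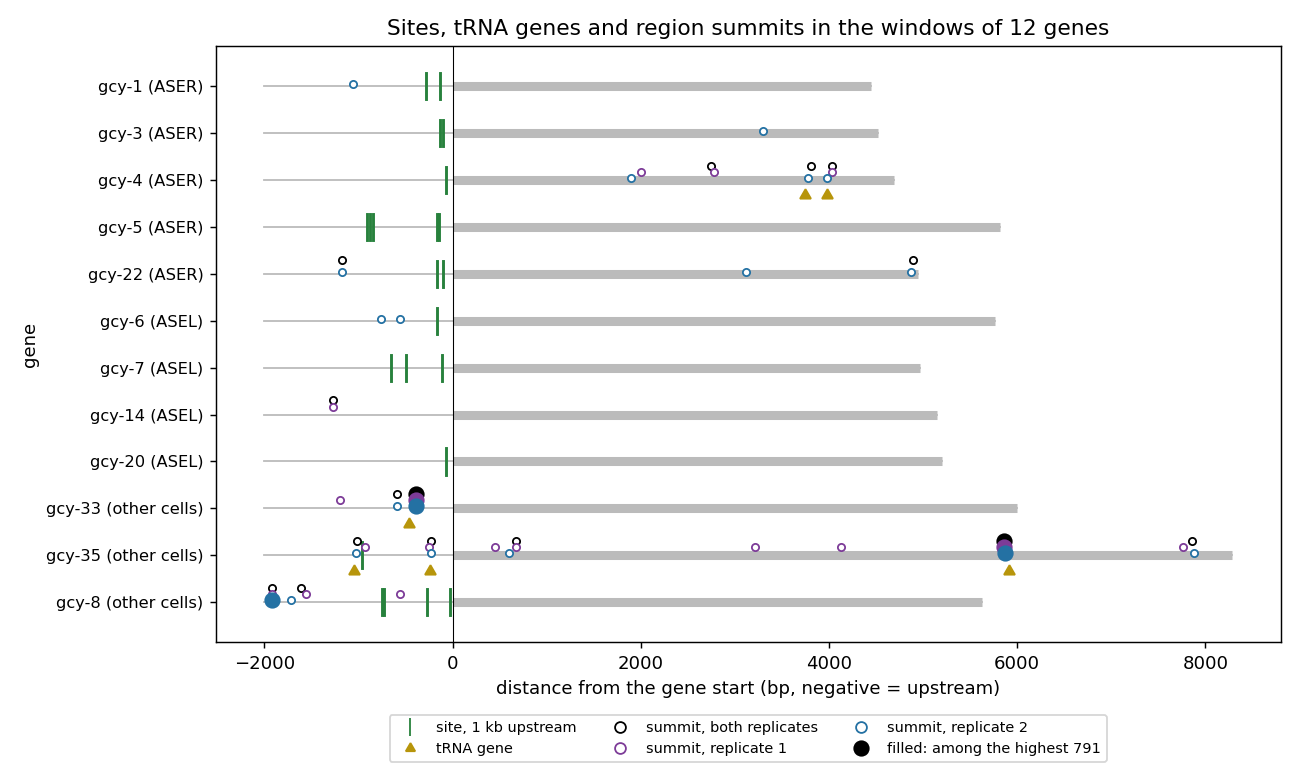
Positions relative to the gene start (bp, negative is upstream) of the CHE-1 core within 1 kb upstream (green bars), tRNA genes (triangles) and region summits (circles: black, both replicates; purple, replicate 1; blue, replicate 2) for the 9 ASE genes, gcy-33, gcy-35 and gcy-8. Grey bars are genes, and filled circles are regions among the highest 791 of a list. None of the ASE genes has a filled circle, and in the list of both replicates none has a summit within 1 kb upstream.

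The CHE-1 core was frequent before the ASE genes. It occurred on either strand between 250 bases before and 50 after the start of 5 of 5 ASER genes and 3 of 4 ASEL genes, gcy-14 being the exception. The share was 88.9% of the 9 ASE genes, beside 6 of the 24 genes of other cells and 19.5% of 19973 nuclear protein-coding genes. Within 1 kb upstream the contrast was smaller, with 88.9% of the ASE genes, 12 of the 24 genes of other cells and 52.4% of all nuclear protein-coding genes. The site was described in part from promoters of ASE genes, so its frequency there is not an independent result. A match is a description of letters and does not show a bound site.

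Summits did not lie at the cores within 1 kb upstream of the ASE genes. Cores inside the genes were not measured in this way, and 1 summit in an exon of gcy-4, at rank 26880, had a core in the 101 bp around it. The core nearest to the gene start is 114 bp upstream of gcy-7, and the nearest summit of the list of both replicates was 11979 bp from it. For gcy-5, with cores 142 and 161 bp upstream, the nearest summits were 9528 and 9509 bp away. For gcy-20 the distance was 16592 bp. gcy-7, gcy-5 and gcy-20 had no region in any list, so their long distances follow from that and are no further result. The closest of the ASE genes in that list was gcy-22, whose cores 164 and 99 bp upstream were 1010 and 1075 bp from a summit. In replicate 2 the core 169 bp upstream of gcy-6 was 394 bp from the summit at rank 5949. Among genes of other cells, the core 965 bp upstream of gcy-35 lay 55 bp from the summit at rank 1077, which is inside a tRNA gene. The same core was 29 bp from the summit at rank 1036 in replicate 1 and 69 bp from that at rank 2081 in replicate 2. In the list of both replicates, the remaining cores of other-cell genes lay 288 bp (gcy-28) to 22955 bp (daf-11) from a summit. Long distances were therefore not particular to the ASE genes, and distances over all genes were not measured.

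The windows of the 9 ASE genes together held 6 regions of the list of both replicates in 63.5 kb, or 9.45 per 100 kb. The windows of other-cell members held 54 regions (23.6 per 100 kb), and the nuclear genome held 29.9 per 100 kb. Of the 6 regions, 2 were at tRNA genes, both in the gcy-4 window, beside 4 of the 54 other-cell regions and 1.26% of all nuclear regions. Within 1 kb upstream of the gene start there were 0 of the 6. The ASE gene's own start was the nearest protein-coding start for 1 of the 6, beside 36 of the 54 for other-cell members. The last 2 counts were not made over all nuclear regions. The sparsity depended on the list. Within rank 10000 the ASE genes numbered 0 of 9 in the list of both replicates and 0 of 9 in replicate 1, but 3 of 9 in replicate 2 (gcy-4, gcy-6 and gcy-22), where the share of all protein-coding genes was 33.9%. Within rank 5000 they numbered 0 of 9 in each of the 3 lists, beside 4011 (both replicates), 4091 (replicate 1) and 3997 (replicate 2) of the 19985 protein-coding genes. With 9 genes these counts leave wide margins.

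**Figure D3:**
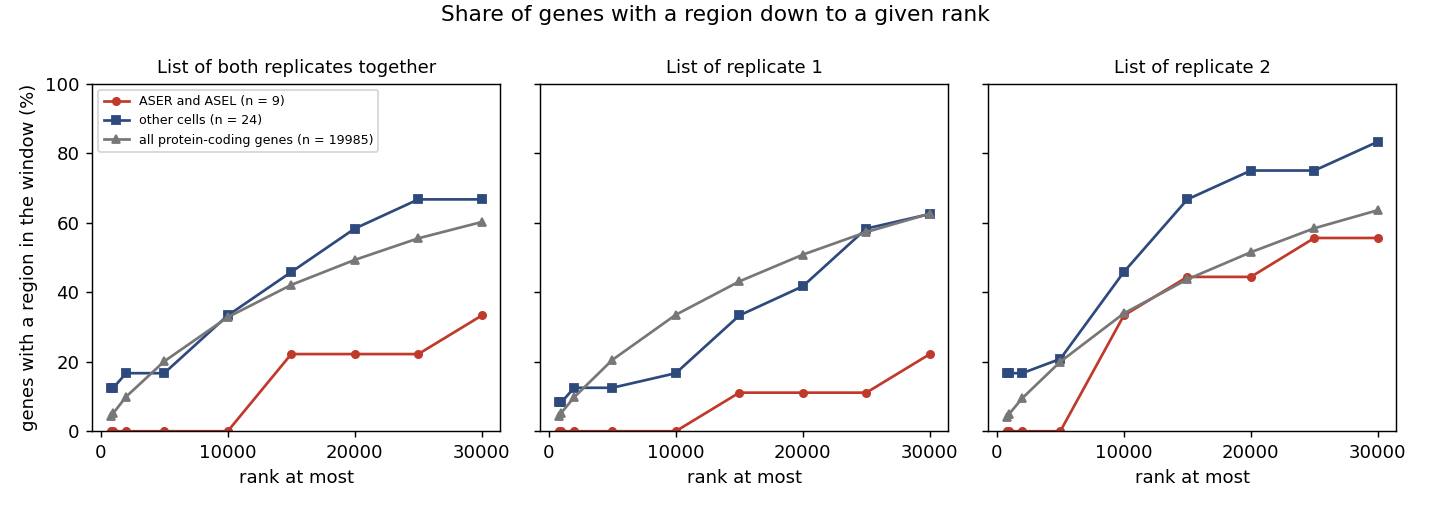
Share of genes (%) with a region in the window at or above each rank, for the 9 ASE genes (red), the 24 other members (blue) and all 19985 protein-coding genes (grey), in the list of both replicates, of replicate 1 and of replicate 2. The red line stays at 0 down to rank 10000 in the first 2 panels and reaches 33.3% there in replicate 2, and at rank 30000 it is at 33.3% (both replicates), 22.2% (replicate 1) and 55.6% (replicate 2).

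The strongest region at any guanylyl cyclase gene was upstream of gcy-33, which codes for a soluble cyclase of the BAG neurons that responds to falling oxygen. It ranked 49 in the list of both replicates (score 614), 57 in replicate 1 (334) and 43 in replicate 2 (279), so the lists place it alike. It spans chromosome V 12002009 to 12002343, with the summit at 12002187, 390 bp upstream of gcy-33 and 11 bp into the tRNA gene printed above. That tRNA gene, V 12002176 to 12002260 on the plus strand, has 1 exact copy in the genome, itself, and gcy-33 runs on the minus strand. The start of gcy-33 was the nearest protein-coding start. The promoter of gcy-33 and the 1 kb upstream hold no GAAACC or GAAGCC. A second region 591 bp upstream ranked 14274.

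gcy-35 codes for a soluble cyclase that senses oxygen in the URX, AQR and PQR neurons, and 3 glycine tRNA genes lie in its window. Its best region ranked 421 in the list of both replicates (score 177), 415 in replicate 1 (102) and 596 in replicate 2 (69.0). It spans chromosome I 13330853 to 13331336 in an intron, 5865 bp past the gene start, and T04D3.5 had the nearest protein-coding start, at 148 bp. The summit lay 123 bp past the start of the tRNA gene T04D3.t2, which is 72 bp long, and so beyond its end. The second region, with its summit 38 bp into T04D3.t3 and 1017 bp upstream of gcy-35, ranked 1077, 1036 in replicate 1 and 2081 in replicate 2. The third, 3 bp into T04D3.t1, ranked 4399, 7693 in replicate 1 and 7177 in replicate 2. T04D3.t2 and T04D3.t3 each share their sequence with 29 copies in the genome, themselves included, so reads of the tRNA genes themselves could come from other copies, and T04D3.t1 has 1 copy.

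gcy-28 codes for a receptor-type cyclase of many neurons, known for its part in olfactory learning, and had the sole IDR region of a member away from tRNA genes. The best ranks in the window were 642 in the list of both replicates (score 139), 1045 in replicate 1 (66.4) and 422 in replicate 2 (80.2). Replicate 1 thus had no region within rank 791. The IDR region spans chromosome I 4490364 to 4490847 in an intron, 9408 bp past the gene start and 1094 bp from the nearest start of a gcy-28 transcript. The best summits of the replicates lay at 9235 bp (replicate 1) and 9424 bp (replicate 2) past the start. In replicate 1 a separate region had its summit nearer to that of the IDR region, at 9436 bp, and it ranked 5281 (41.9). gcy-28 has the longest window of the 33, 29.7 kb, and held 15 regions, the next at ranks 1752 and 1983. That is 50.4 per 100 kb, against 29.9 in the nuclear genome. The density was not particular to gcy-28, with 61.5 per 100 kb at gcy-34 and 48.6 at gcy-35. A single core occurs upstream, 36 bp before the start, and the nearest summit to it, 288 bp away, ranked 17577.

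gcy-8 was the member just outside the IDR set. It codes for a thermosensory receptor cyclase of the AFD neurons, together with gcy-18 and gcy-23. Its best region ranked 1395 in the list of both replicates (score 102), 12038 in replicate 1 (32.3) and 626 in replicate 2 (67.8), so replicate 2 alone places it among the highest 791. The summit, on chromosome IV at 7926235, was 1917 bp upstream of gcy-8 and 156 bp inside rps-2, a ribosomal protein gene, whose start was the nearest. For gcy-23 the ranks were 9049, 7229 in replicate 1 and 10788 in replicate 2. For gcy-18 they were 22577, 21929 in replicate 1 and 18327 in replicate 2. The 3 AFD genes had a region in each long list, as did 60.2% (both replicates), 62.6% (replicate 1) and 63.6% (replicate 2) of all genes, and 0 of 3 had an IDR region, beside 4.29% of all genes.

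Apart from gcy-33, the BAG genes ranked low. gcy-9, which codes for a receptor of carbon dioxide, ranked 19047, 27894 in replicate 1 and 28694 in replicate 2. The summit of both replicates lay 1660 bp upstream of gcy-9, where the start of aco-1 was nearer, at 331 bp. In each replicate aco-1 was again the nearer start. gcy-31, the soluble partner of gcy-33 in oxygen sensing, ranked 14417 and 11108 in replicate 2, with none in replicate 1. Of the 6 genes of the URX, AQR and PQR neurons, gcy-35 had an IDR region (4.29% of all genes had one) and 4 had any region in the list of both replicates (60.2% of all genes). gcy-37, next after gcy-35, ranked 7221, 11354 in replicate 1 and 3403 in replicate 2. gcy-36, which works with gcy-35 in oxygen sensing, ranked 14043, 21414 in replicate 1 and 7853 in replicate 2, in a window of which 20.8% of 50-base stretches occur elsewhere in the genome. gcy-34 ranked 17031, 24386 in replicate 1 and 17840 in replicate 2, gcy-25 had regions in the replicate lists alone (24879 in replicate 1, 6434 in replicate 2), and gcy-32 had none in any list.

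odr-1 and daf-11 code for receptor-type cyclases that transduce odours in the AWC neurons, and daf-11 also acts in the decision to form dauer larvae. odr-1 ranked 15851 in the list of both replicates (score 46.6), 15339 in replicate 1 and 11368 in replicate 2, with its summit in an exon 2969 bp past the start. daf-11 had no region in any list. gcy-19 (rank 7283) and gcy-17 (8227) were the best of the members that remain, and gcy-13 and gcy-27 had none in any list.

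The members with the 2 best ranks, gcy-33 and gcy-35, have a tRNA gene at their summit. Of the 33 genes, 3 have tRNA genes in their window, 6 in all: gcy-33, gcy-35 and the ASER gene gcy-4. Of these 3 genes, 2 had an IDR region, beside 49.9% of the 411 protein-coding genes with a tRNA gene in the window. Of the 30 members without one, 1 had an IDR region (gcy-28), beside 3.34% of such genes. Counted by region, an IDR summit within 100 bp of a tRNA gene was found in 2 members, against 0.986% of all genes, and an IDR summit away from tRNA genes in 1 member, against 3.42%. Of the 6 tRNA genes, 2 had an IDR summit, beside 226 of the 612 nuclear tRNA genes (36.9%). The tRNA genes at gcy-4, ZK970.t3 and ZK970.t2, were at ranks 11172 and 20586. ZK970.t2 has 24 exact copies in the genome, itself included, so its reads could come from other copies, and replicate 1 had no summit there. ZK970.t3 has 1 copy. Whether the cyclase gene has any part in the regions at its tRNA genes was not tested.

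Beyond the IDR set, 19 of the 33 members (57.6%, exact 95% interval 39.2 to 74.5%) had some region in the list of both replicates, beside 60.2% of all protein-coding genes. These were 2 of 5 ASER genes, 1 of 4 ASEL genes and 16 of 24 of other cells. The median best rank of those 19 was 11946, against 8759 over the 12023 protein-coding genes with a region. The 19 windows held 60 regions, 15 upstream of the gene, 17 in exons and 28 in introns, and for 37 the nearest protein-coding start was that of the member. In the 101 bp around the summit, 3 of the 60 (5.00%) held GAAACC or GAAGCC, those in gcy-4, gcy-17 and gcy-37, beside 8.56% of all nuclear regions. The median share of G and C there was 42.6%, against 40.6% in all nuclear regions and 50.5% in the 770 nuclear IDR regions. Presence in this list is not a call, since it includes background regions.

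The replicates ranked the members only partly alike. Replicate 1 had a region at 17 members (62.6% of all genes had one) and replicate 2 at 25 members (63.6% of all genes). A region in both lists was found at 16 members, 9 had one in replicate 2 alone, 1, gcy-14, in replicate 1 alone, and 7 in neither. Over all protein-coding genes, 12.3% had a region in replicate 2 alone and 11.3% in replicate 1 alone. The ASE genes with a region in replicate 2 alone were gcy-1, gcy-3, gcy-6 and gcy-22. Of the 16 members in both lists, 12 ranked better in replicate 2, while over all genes in both lists the share was 49.6%. The Spearman correlation of best ranks was 0.68 over those 16 genes and 0.54 over 10263 protein-coding genes, a description across genes that share the 2 libraries. Among the highest 791 regions of a replicate, replicate 1 had 2 members (gcy-33 and gcy-35, 4.26% of all genes) and replicate 2 had 4 (with gcy-28 and gcy-8, 4.16% of all genes). The median best rank of members in replicate 1 was 14528, against 9044 over all genes with a region there. In replicate 2 it was 7853, against 9206, so the members sat lower than all genes in replicate 1 and higher in replicate 2.

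**Figure D4:**
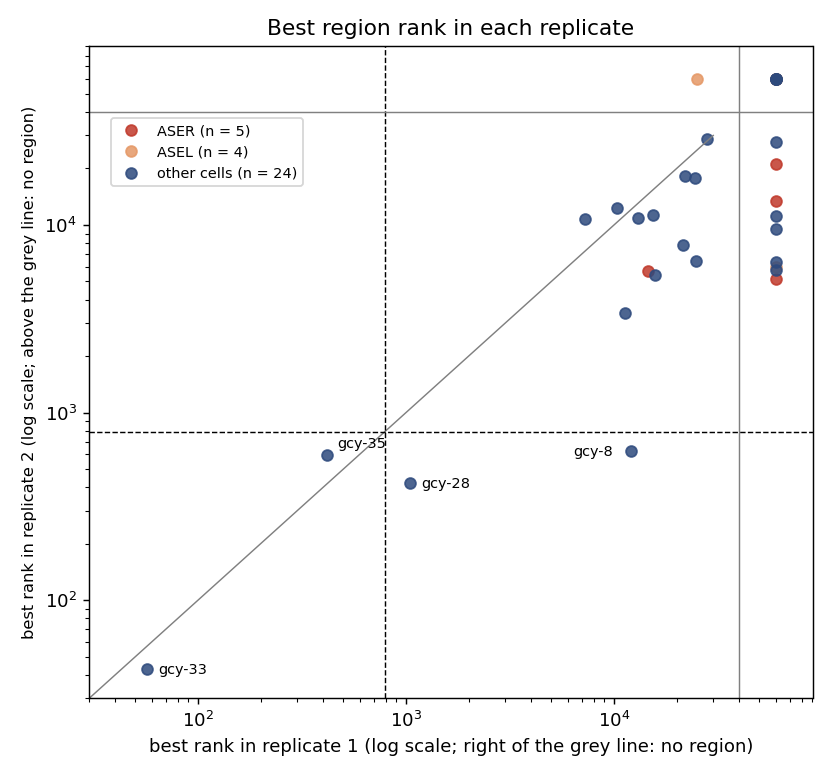
Best rank of each member in replicate 1 (horizontal) and replicate 2 (vertical), on log axes, with lists lacking a region beyond the grey lines, the dashed lines at rank 791 and the diagonal as equal ranks. Of the 16 genes with both ranks, 12 lie below the diagonal, gcy-33 and gcy-35 lie under 791 in both lists, and the point at the top right stands for 7 genes that overlap.

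Among other genes of the cGMP pathway, cng-3 alone had an IDR region. Of 12 genes for channels (tax-2, tax-4, cng-1, cng-2, cng-3 and che-6), phosphodiesterases that break cGMP down (pde-1, pde-2, pde-3 and pde-5) and cGMP-dependent kinases (egl-4 and pkg-2), 1 had an IDR region, beside 4.29% of all protein-coding genes, and 8 had any region in the list of both replicates, beside 60.2%. The IDR region was at cng-3, which codes for a channel subunit. It ranked 37 in the list of both replicates (score 701), 39 in replicate 1 (393) and 30 in replicate 2 (315). It spans chromosome IV 9477587 to 9477942, 3277 bp past the gene start, with its summit within 100 bp of the small nucleolar RNA gene F38E11.14. tax-2 and tax-4 code for the channel subunits through which the ASE cyclases signal. Neither had a region in the list of both replicates. tax-2 ranked 13015 in replicate 2 with none in replicate 1, and tax-4 ranked 23615 in replicate 1 with none in replicate 2. After cng-3, the best ranks in the list of both replicates were 1551 for egl-4 and 2113 for pde-2. egl-4 ranked 1354 in replicate 1 and 1655 in replicate 2, and pde-2 ranked 5863 and 2934. In the list of both replicates pde-3 ranked 5109, pkg-2 5221, pde-1 5536, che-6 7453 and cng-2 17386. cng-1 and pde-5 had no region there.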

How the data were processed

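The authors deposited region lists of build ce11, whose score per region (signal column, relative to a control, scale not stated) ranked regions within a list; their q score ranked them almost identically and served only as an alternative. Per the labels, the replicates are biological. Caller, aligner and threshold of the IDR step: not given in the sources used here. Gene windows came from the Ensembl release 115 annotation of WBcel235, and sequences, promoters included, from the RefSeq sequence of WBcel235 around the Ensembl gene starts. tRNA genes counted as at a summit within 100 bp. Intervals on shares of genes are exact binomial ones (Clopper-Pearson, 95%) and cover counting error alone. No test was made. The assignment of regions to genes was tested on simulated data. The members, gene lists and cell types were chosen with earlier results of these data known. The genes named with values were, by rule, the members with an IDR region, all ASE genes, the 5 best ranked others, the AFD, BAG, URX, AQR, PQR, AWB and AWC genes, pathway genes with an IDR region and tRNA genes at their summits. Values of pathway genes without an IDR region, and members named for having no region, for a core or for other counts, were added after they were seen. The lists of build ce10 were not used here. Alternatives covered the window, the overlap, the list, the ranking column, the tRNA distance and the promoter. Python 3.11.15, numpy 2.4.6, pandas 2.3.3, scipy 1.17.1 and matplotlib 3.10.9 were used.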

Additional observations from a re-analysis of the deposited data

How the results depend on the processing

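The 0 counts of ASER and of ASEL genes with an IDR region were 0 under every alternative run: windows from 1 kb upstream, upstream only or with any overlap, the stronger part of the IDR set (395 regions), and each replicate's own highest 791 regions, and for ASER also with gcy-2 added. The count of members with an IDR region, 3, all of them genes of other cells, was 1 with the 2 kb upstream only (gcy-33), 1 in the stronger part of the IDR set (gcy-33) and 1 without regions at tRNA genes (gcy-28). The same values hold for the genes of other cells alone. Leaving out a replicate gave 2 to 4 members, 4 without replicate 1 and 2 without replicate 2. The count with any region, 19, was 11 with the 2 kb upstream only and 17 to 25 over single replicates, and the median best rank, 11946 against 8759 over all genes, was 7853 against 9206 without replicate 1 and 14528 against 9044 without replicate 2, so its direction against all genes turned without replicate 1. With 50 bp as the limit, 1 of the 2 IDR summits was at a tRNA gene. The pathway count of 1 was 0 with the 2 kb upstream only and 0 without regions at small nucleolar RNA genes, a choice made after seeing the data. The core was found in 14 promoters and in 20 members within 1 kb upstream. The other alternatives moved no count by over 1.5 times, and the median best rank was 11924 to 12618 with the q column, nuclear regions or the 2 kb upstream only. No paired analysis was possible because there is 1 group. Depth is unknown, so whether deeper libraries would hold regions at the ASE genes cannot be told.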
